A study of Mus musculus with 2 samples.

Results

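The olfactory sensory neuron transduction genes are 10 mouse genes, chosen by name: Omp, Gnal, Adcy3, Cnga2, Cnga4, Cngb1, Ano2, Rtp1, Stoml3 and S100a5. Every non-control probe carrying one of these names on both arrays was taken, which gave 16 probes among 56605 and 10 genes among 37074 gene names. Total RNA of the olfactory bulb was measured in 1 mouse kept under odor-enriched conditions (odor enriched) and 1 mouse kept under standard odor conditions (control), with 1 Cy3-labelled Agilent array each. The labels call the tissue neurons of the bulb, while the source is the bulb and no sorting step is given. Strain, sex, age, the odors and the length of exposure are not stated in the labels. With 1 array per condition there were no replicates, so no test between conditions was possible and no p-value is given.

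Olfactory sensory neurons have their cell bodies in the nasal epithelium and send their axons into the outer layer of the olfactory bulb. An odorant receptor on the cilium activates a G protein, which switches on an adenylyl cyclase. The cyclic AMP it makes opens a cation channel, and the calcium that enters opens a chloride channel that enlarges the current. Transcripts of mature sensory neurons, such as Omp, are known to travel into the axons, so bulb tissue holds some of this RNA without the cell bodies. In bulk tissue, fewer axons and less RNA per axon cannot be told apart.

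Signals are background-subtracted intensities of the scanner software, and the ± beside a signal or a probe's difference is the error the software estimates for the spot or the 2 spots. It covers the arrays only and not the spread between mice. A level is the log2 signal minus the 75th percentile of its array, and a difference is the odor-enriched minus the control level. The odor-enriched array had 67.6% and the control array 73.7% of its spots well above background. The 75th percentile lay at a signal of 277 in the odor-enriched and 355 in the control array, with median local backgrounds of 22 and 17. The difference had a pooled SD of 0.0465 between repeat spots (300 probes) and of 0.627 between probes of 1 gene (8234 genes). The listed markers of bulb granule, mitral and tufted, and dopaminergic periglomerular cells that the arrays name were above background on both arrays.

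All 8 transduction genes measured on both arrays stood lower in the odor-enriched than in the control bulb, and the other 2, Cnga4 and Rtp1, were well above background only in the control bulb. Of the 8 genes, 6 were at least 2-fold lower (Omp, Gnal, Cnga2, Ano2, Stoml3 and S100a5), 2 were less than 2-fold lower (Adcy3 and Cngb1) and 0 were higher. Their median difference was -1.50 log2 units. For comparison, 5.52% of the 23872 genes above background on both arrays were at least 2-fold lower, 11.5% were at least 2-fold higher, and their median difference was 0.0016. Of all 27035 genes above background on either array, 9.99% were above it in the control bulb alone. The count and the median over the 8 genes leave out Cnga4 and Rtp1, which were not well above background in the odor-enriched bulb.

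**Figure D1:**
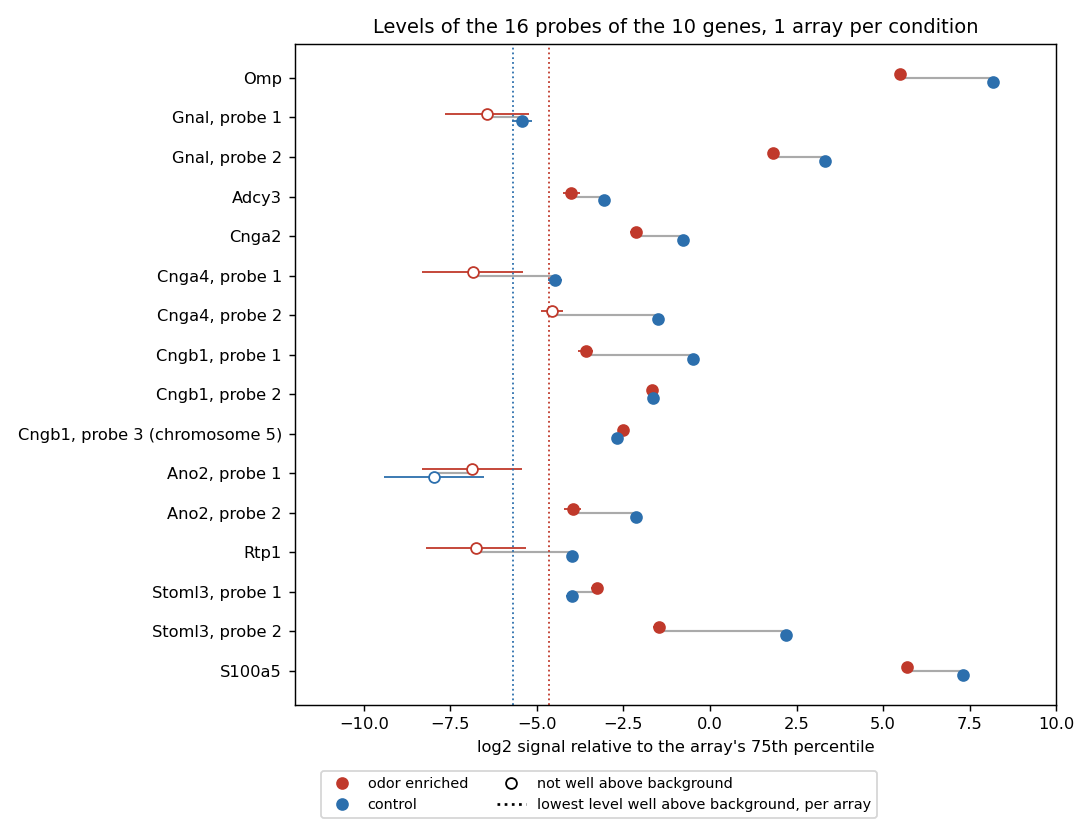
Level of each of the 16 probes in the odor-enriched bulb (red) and the control bulb (blue), as log2 signal minus the 75th percentile of its array (x axis), with 1 array each, bars for the software's error, open points for probes not well above background and probes of a gene numbered from the lower coordinate, the Cngb1 probe on chromosome 5 last. The red point lies left of the blue one for Omp, Adcy3, Cnga2, Rtp1, S100a5, both Gnal and both Cnga4 probes and the first Cngb1, second Ano2 and second Stoml3 probes, while the other 2 Cngb1 probes have their points close together and the first Stoml3 and first Ano2 probes run the other way.

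Omp encodes the olfactory marker protein, a cytosolic protein that marks the mature sensory neuron. Its single probe (chromosome 7, 105291870 to 105291929, mm9) gave a signal of 9014 ± 901 in the odor-enriched bulb and 71710.1 ± 7171 in the control bulb. The levels were 5.48 and 8.16, a difference of -2.68 ± 0.20, or 6.41-fold lower with odor enrichment. The difference lay far outside the spot error, and 33 of the 23872 genes (0.138%) had a difference as low or lower, Omp included. Capn5, a calpain gene whose RefSeq span overlaps Omp, had levels of -1.90 and -1.66, a difference of -0.24.

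S100a5, a calcium-binding protein of sensory neurons whose transcript is known to rise with odor-driven activity, was also bright. Its probe (chromosome 3, 90415491 to 90415550, mm9) gave 10488 ± 1049 in the odor-enriched and 39897 ± 3989.7 in the control bulb. The difference was -1.62 ± 0.20, 3.07-fold lower in the odor-enriched bulb, and 313 genes (1.31%) stood as low or lower. The difference of S100a5 was thus in the same direction as that of Omp and smaller by more than the spot errors.

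Rtp1 encodes a chaperone that carries odorant receptors to the cell surface. Its probe (chromosome 16, 23433062 to 23433121, mm9) gave 1.86 ± 1.87 in the odor-enriched bulb, not well above background, and 15.9 ± 1.89 in the control bulb. The measured levels were -6.76 and -3.97. Set against the lowest level well above background on the odor-enriched array, -4.66, Rtp1 was at least 1.61-fold lower there. Bounds of this kind set the control level against that lowest level. Where the probe's own level is higher, that level is used and the value is a measured ratio. The lowest level is taken over the whole array, and a single spot can need a higher one. A Cnga4 probe at -4.56, for example, was not called well above background. The bounds are therefore approximate and not strict limits. A dim control signal such as that of Rtp1 leaves room for only a small bound. After normexp background correction, which adds an offset to each signal, the Rtp1 difference was 0.0060.

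Gnal encodes the olfactory G protein alpha subunit that couples the receptor to the cyclase. Its bright probe (chromosome 18, 67386343 to 67386402, mm9) gave 712 ± 71.2 in the odor-enriched and 2515 ± 251 in the control bulb, a difference of -1.51 ± 0.20 or 2.85-fold lower. A second Gnal probe (chromosome 18, 67351962 to 67352021) gave 2.32 ± 1.95 and 5.80 ± 1.17, and was not well above background in the odor-enriched bulb. Its control level of -5.43 lay under the lowest level well above background on the odor-enriched array, so no bound was given, and the Gnal result rests on 1 probe. The genes Chmp1b (-0.14) and Mppe1 (0.20), which overlap Gnal in RefSeq, had differences near 0.

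Adcy3 encodes the cyclase of the sensory cilium. Its probe (chromosome 12, 4211535 to 4211594, mm9) gave 12.6 ± 2.07 in the odor-enriched and 29.9 ± 3.16 in the control bulb. The difference was -0.94 ± 0.28, 1.92-fold lower, and 1560 genes (6.53%) stood as low or lower. The local backgrounds were 25 and 18, and the difference was -0.07 after normexp background correction. The median difference of the surrounding spots on the array was 0.37, and subtracting it gave -1.33 for Adcy3.

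The cyclic-nucleotide-gated channel of sensory neurons is built from Cnga2, which forms the pore, Cnga4 and a splice form of Cngb1. Cnga2 (chromosome X, 69254862 to 69254921, mm9) gave 45.5 ± 4.90 in the odor-enriched and 146 ± 14.7 in the control bulb, a difference of -1.37 ± 0.21 or 2.59-fold lower. It was -0.76 after normexp correction, inside 2-fold. Both probes of Cnga4, a modulatory subunit that speeds adaptation, were well above background in the control bulb alone. One (chromosome 7, 112557135 to 112557194) gave 8.53 ± 1.91 in the odor-enriched and 88.5 ± 8.90 in the control bulb. Its odor-enriched level, -4.56, lay above the lowest level well above background on that array, -4.66. The 8.36-fold lower value (-3.06 ± 0.35) is therefore the measured ratio of a dim signal and not a bound. The other (chromosome 7, 112556437 to 112556496) gave 1.74 ± 1.74 and 11.3 ± 1.53 and was at least 1.14-fold lower. After normexp correction the 2 probes differed by -0.90 and -0.03. The odor-enriched signals of both were too dim for a reliable fold.

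The 3 probes named Cngb1 did not give 1 value. A probe on chromosome 8 (97762945 to 97763004, mm9, minus strand) gave 16.8 ± 2.48 in the odor-enriched and 179 ± 17.98 in the control bulb, a difference of -3.11 ± 0.26 or 8.63-fold lower. Another probe of the same RefSeq transcript (chromosome 8, 97764887 to 97764946) gave 63.5 ± 6.55 and 79.2 ± 7.98, a difference of -0.01 ± 0.21. These 2 probes of 1 transcript, 1 far lower and 1 at 0, differ by more than the spread between probes of a gene. The third probe (35.5 ± 3.90 in the odor-enriched and 39.1 ± 4.03 in the control bulb, 0.17 ± 0.22) is placed by the files on chromosome 5 (143435205 to 143435264), although RefSeq places Cngb1 on chromosome 8. Such a mismatch was found for 68 of 41603 probes with a position and a RefSeq symbol (0.163%). The mean of the 3 probes was -0.98, with levels of -2.59 and -1.60, and without the chromosome 5 probe it was -1.56, with levels of -2.63 and -1.07. The first 30 bases of each 60-base probe are shown, so that the disagreeing probes can be traced in the transcript, with no part in capitals.
Cngb1, chromosome 8, difference -3.11: tctgtacacgccggctttcacagtacagct
Cngb1, chromosome 8, difference -0.01: ctgagcaccctgctcccttcctgaggttgc
Cngb1, chromosome 5, difference 0.17: ggaccaccaccgactgtgacattgtaattg

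Ano2 encodes the calcium-activated chloride channel of the cilium. One Ano2 probe (chromosome 6, 125990063 to 125990122, mm9) gave 12.9 ± 2.19 in the odor-enriched and 57.2 ± 5.80 in the control bulb, a difference of -1.84 ± 0.29 or 3.57-fold lower. After normexp correction it was -0.45. The other Ano2 probe (125906945 to 125907004) gave 1.71 ± 1.72 and 0.989 ± 0.994, was not well above background on either array and carries no fold. The Ano2 value therefore rests on 1 probe with a dim odor-enriched signal.

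Stoml3 encodes a stomatin-like membrane protein of the sensory cilium. Its main probe (chromosome 3, 53311510 to 53311569, mm9), assigned to the RefSeq transcript, gave 71.9 ± 7.37 in the odor-enriched and 1138 ± 114 in the control bulb. The difference of -3.67 ± 0.21, or 12.8-fold lower, was the largest of the probes measured on both arrays among the 16. A probe assigned to an Ensembl transcript (chromosome 3, 53302295 to 53302354) gave 20.9 ± 2.63 and 15.9 ± 1.87, a difference of 0.71 ± 0.25 or 1.63-fold higher. The mean of the 2 probes was -1.48, with levels of -2.38 and -0.90, a value that neither probe shows. Their first 30 bases are given for the same reason as those of Cngb1.
Stoml3, difference -3.67: acatacttgagggcattggtggcatcagct
Stoml3, difference 0.71: aacctgctttataactcacacccccaagta

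**Figure D2:**
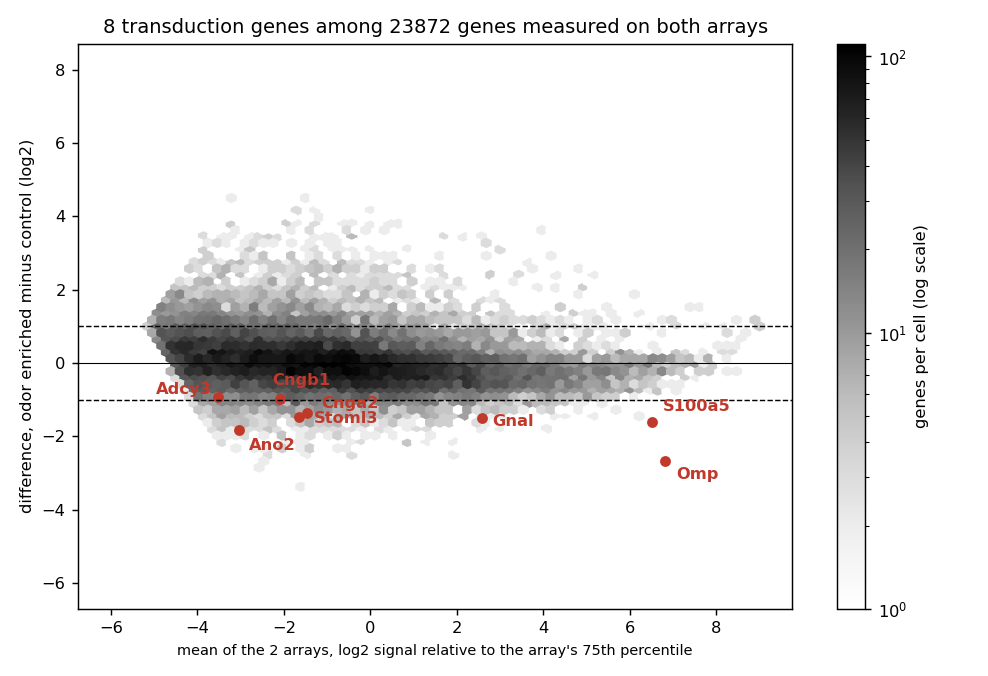
Difference of each of the 23872 genes measured on both arrays (y axis, log2, odor enriched minus control) against its mean level on the 2 arrays (x axis, log2), with the number of genes per hexagon in grey on a log scale, the 8 transduction genes in red and dashed lines at 2-fold. Omp at -2.68 and S100a5 at -1.62 lie among bright genes, and Ano2 at -1.84 and Adcy3 at -0.94 among dim ones.

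Ranked among all measured genes, the other transduction genes also lay in the low tail. Ano2 had 186 genes (0.779%) at or below its difference, Gnal 395 (1.65%), Stoml3 425 (1.78%), Cnga2 531 (2.22%) and Cngb1 1394 (5.84%). These ranks describe the 2 arrays only. By the rule for likeness, the 5 genes of at least median signal whose difference was nearest to that of Omp over the 2 arrays were Fgfbp1 (-2.71, gap 0.032), Gm32191 (-2.61, gap 0.068), Hey2 (-2.60, gap 0.082), Plekha4 (-2.76, gap 0.082) and Egfl8 (-2.57, gap 0.11). A gap over 2 arrays is a weak measure of likeness.

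Sensory neuron promoters are known to carry sites of the Ebf (O/E) and homeodomain factors. RefSeq windows of 250 bases upstream of the start (GRCm38.p6) were at hand for 7 of the 10 genes, with 10 windows in all. The palindromic Ebf core CCCNNGGG, read on both strands, was found in 3 of the 10 windows (Cnga2, Cngb1 and 1 of 3 for Ano2), against 3882 of 32851 windows of all genes (11.8%). The homeodomain core TAATTA, also palindromic, was found in 0 of 10, against 1590 of all windows (4.84%). A match of letters is a description and not a binding site. The windows with the Ebf core are shown 5′ to 3′ on the gene's strand with the core in capitals, since these 3 genes are the ones whose start regions share it. The core begins 66 bases before the start in Cnga2 (chrX:71991599-71991848, plus strand), 129 in Cngb1 (chr8:95306586-95306835, minus strand) and 67 in Ano2 (chr6:125710938-125711187, plus strand).
Cnga2: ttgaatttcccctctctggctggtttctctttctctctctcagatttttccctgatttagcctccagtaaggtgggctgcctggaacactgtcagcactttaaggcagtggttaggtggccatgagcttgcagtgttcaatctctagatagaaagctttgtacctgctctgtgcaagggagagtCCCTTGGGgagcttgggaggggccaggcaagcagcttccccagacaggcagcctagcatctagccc
Cngb1: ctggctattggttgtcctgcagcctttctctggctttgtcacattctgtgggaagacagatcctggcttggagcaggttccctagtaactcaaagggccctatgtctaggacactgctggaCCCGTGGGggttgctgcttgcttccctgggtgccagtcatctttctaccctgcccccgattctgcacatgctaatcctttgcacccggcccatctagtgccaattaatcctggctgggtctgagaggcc
Ano2: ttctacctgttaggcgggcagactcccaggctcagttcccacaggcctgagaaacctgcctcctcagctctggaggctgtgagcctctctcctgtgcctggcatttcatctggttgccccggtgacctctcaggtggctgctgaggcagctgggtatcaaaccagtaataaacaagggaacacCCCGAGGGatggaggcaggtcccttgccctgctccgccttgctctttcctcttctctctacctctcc

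Members of the same gene families served for comparison. Of 10 other G protein alpha subunits, all measured, 1 was at least 2-fold lower (Gna11, -1.16), 0 were higher and the median was -0.33, with Gnaz at -0.79, Gnaq at -0.08 and Gnai2 at 0.02. Gnas, the closest relative of Gnal and the stimulatory subunit of most cells, stood at -0.15, against -1.51 for Gnal. Of 9 other adenylyl cyclases 1 was at least 2-fold lower (Adcy1, -1.07) and 2 were higher (Adcy6, 2.37, and Adcy4, 2.15), with Adcy8 at -0.81 and a median of 0.07. Adcy3 at -0.94 thus lay inside the range of its family.

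The other channel subunits differed in direction from Cnga2. Cnga1 of rod photoreceptors stood at 0.66 and Cnga3 of cones at 0.27, and Cngb3 was not well above background on either array. Among 7 measured relatives of Ano2, 0 passed 2-fold either way, the range ran from -0.18 for Ano10 to 0.98 for Ano1, with Ano6 at 0.11, and the median was 0.08. Rtp2, a second receptor chaperone of sensory neurons, was lower at -1.72, Rtp4, known to be induced by interferon, stood at 0.99, and Rtp3 was above background only in the odor-enriched bulb, at least 19.6-fold higher. Among relatives of Stoml3, Stom (-1.45) was at least 2-fold lower, and Stoml2 (-0.52) and Stoml1 (-0.48) were not. Of 11 other S100 genes, S100a3 was at least 2-fold lower (-1.26), S100a4 was higher (1.62), and S100a16 (-0.86) and S100a10 (0.63) followed.

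**Figure D3:**
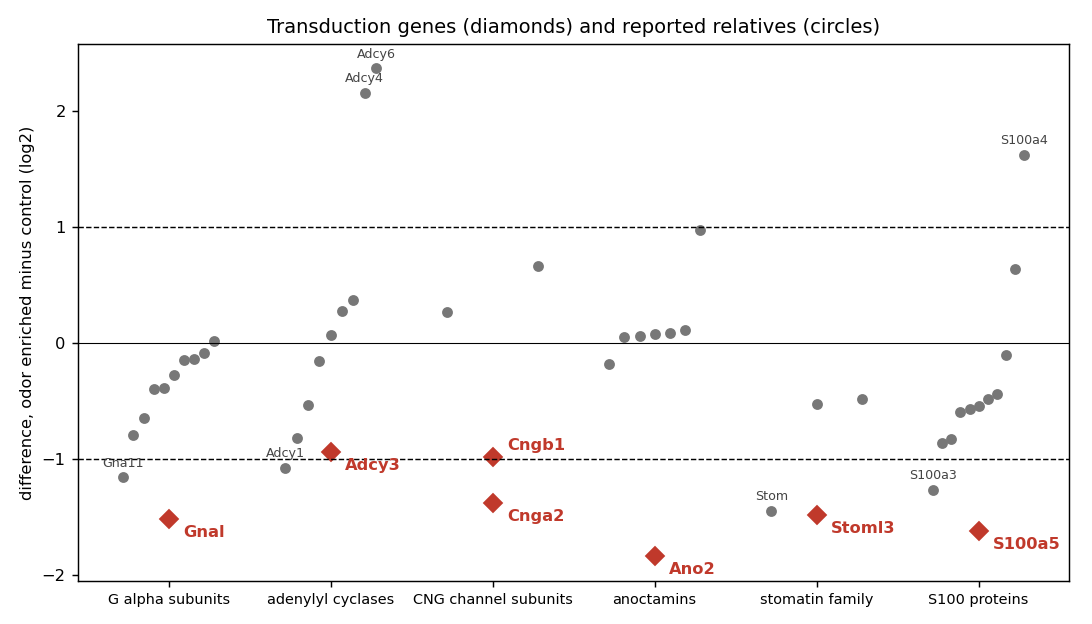
Difference (y axis, log2, odor enriched minus control) of 7 transduction genes (red diamonds) and of the reported relatives in the same family (grey circles, spread sideways by value, named where past 2-fold), with dashed lines at 2-fold. Gnal at -1.51, Ano2 at -1.84 and S100a5 at -1.62 lie below each of their relatives shown, whereas Adcy1 lies below Adcy3.

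Other genes of the cascade, 16 in number and all measured on both arrays, were lower less uniformly. At least 2-fold lower were Rtp2 (-1.72), Gng13, the G protein gamma subunit of the cilium (-1.58), Slc24a4, a sodium-calcium exchanger that ends the response (-1.41), Gfy, a Golgi protein of sensory neurons (-1.24), and Gnb1, a G protein beta subunit (-1.09). Lower by less than 2-fold were Ric8b, a chaperone of the olfactory G protein (-0.95), Calm2 (-0.69), Pde4a, a cyclic AMP phosphodiesterase (-0.63), Adrbk2, a receptor kinase also called Grk3 (-0.55), and Calm3 (-0.21). Near 0 lay Pde1c, the phosphodiesterase of the cilium (-0.09, with probes at -0.77 and 0.58), Prkaca, a protein kinase A subunit (-0.02), and Reep1, a receptor transport protein (0.00). Slc12a2, which loads the cell with chloride (0.40), and Arrb2, an arrestin (0.43), stood higher by less than 2-fold. The list counted 5 genes at least 2-fold lower and 0 higher, with a median of -0.59. After normexp correction Slc24a4 (-0.51) and Gfy (-0.60), both dim, were inside 2-fold. Rtp2 (-1.06), Gng13 (-1.65) and Gnb1 (-1.08) stayed past 2-fold. Calm2, Calm3, Prkaca, Gnb1 and Slc12a2 are expressed in most cells of the bulb.

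Genes of sensory neuron identity that take no part in transduction gave a mixed picture. Of the 14 above background on both arrays 3 were at least 2-fold lower, namely Ebf2 (-1.92) and Atf5 (-1.52), both transcription factors, and Nqo1 (-1.90), an oxidoreductase of dorsal sensory neurons. Ebf1 (1.64) and Fezf1 (1.49), also transcription factors, were at least 2-fold higher, and the median was -0.41. Ebf2 and Fezf1 were dim, and after normexp correction they stood at -0.44 and 0.44, inside 2-fold. Nqo1 (-1.46), Atf5 (-1.56) and Ebf1 (1.17) stayed past 2-fold. Acsm4 and Umodl1, both known from sensory neurons, were above background in the control bulb alone. By the same approximate bound they were at least 10.6-fold and 7.25-fold lower in the odor-enriched bulb. Genes of other chemosensory cells, such as the guanylyl cyclase neurons and the trace amine receptor neurons, had 0 of 7 measured members past 2-fold, a median of 0.27 and a range from Gucy1b2 (-0.45) to Taar4 (0.99), with Pde2a at -0.16 and Taar5 at 0.52. Of the rest, 1 (Taar2) was above background in the control bulb alone, at least 1.11-fold lower, and 3 (Trpm5, Taar3 and Taar6) on neither array.

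Markers of ensheathing glia, which wrap the sensory axons on their way into the bulb, moved with the transduction genes. All 12 were measured on both arrays, 8 at least 2-fold lower and 0 higher, with a median of -1.15. Sox10 (-1.80) and Frzb (-1.73) were among the lowest, and S100b (-0.44) and Serpine2 (-0.19) were the highest. Their summed level, the log2 of their added signals, was 8.50 in the odor-enriched and 9.48 in the control bulb, and none was below background on either array. The summed level of the 8 transduction genes was 6.66 in the odor-enriched and 8.84 in the control bulb. That sum is made up mostly of Omp (5.48 and 8.16) and S100a5 (5.70 and 7.32), so it does not describe the 8 genes as a group. Whether the share of nerve layer in the tissue had a part in the differences of the transduction genes was not tested.

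Markers of nasal epithelium were in part lost from detection in the odor-enriched bulb. Of 12, 2 were above background on neither array. Of the rest, 5 were above background in the control bulb alone, against 9.99% of all genes above background on either array. The other 5 were measured on both arrays, where 0 passed 2-fold, the median was -0.03 and the summed level was 0.498 in the odor-enriched and 0.492 in the control bulb. Scgb1a1 (-0.16), Obp1a (-0.14), Krt18 (0.31) and Krt5 (0.56) span the measured range. Those above background in the control bulb alone were Cyp2a5, a cytochrome of the olfactory mucosa, at least 6.20-fold lower in the odor-enriched bulb, Sec14l3 at least 2.25-fold, Cyp2f2 at least 2.06-fold, Cyp2g1 at least 1.13-fold, and Krt8 with no bound. These 5 enter neither the median nor the summed level. Cyp1a2 and Reg3g were above background on neither array. The part of nasal mucosa in the result was not tested.

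Markers of bulb neurons differed in part. Granule cell markers had 0 of 8 past 2-fold and a median of -0.20, from Tshz1 (-0.83) and Penk (-0.41) to Meis2 (-0.03) and Gad2 (0.14). Mitral and tufted cell markers, the neurons on which the sensory axons end, had 3 of 7 at least 2-fold lower (Doc2g, -1.84, Slc17a7, -1.67, and Cdhr1, -1.40) and 1 higher (Tbx21, 3.11), with Reln at 0.32 and a median of -0.36. Slc17a7 was dim and stood at -0.66 after normexp correction, inside 2-fold. Doc2g (-1.80), Cdhr1 (-1.13) and Tbx21 (2.47) stayed past 2-fold. Which cells of the bulk tissue carried the higher Tbx21 signal, mitral and tufted cells or others, was not tested. Dopaminergic periglomerular markers had 1 of 8 lower (Slc6a3, -1.13) and 2 higher (Gch1, 1.97, and Nr4a2, 1.12), with Th at -0.49, whose level is known to follow sensory input, and a median of -0.25. After normexp correction Slc6a3 (-0.31) and Nr4a2 (0.97) were inside 2-fold, and Gch1 (1.67) was not. T and NK cell markers ran the opposite way: 9 of 10 were at least 2-fold higher, from Klrg1 (6.43) and Ccl5 (5.45) down to Cd3e (1.44). Prf1 (0.58) was higher by less than 2-fold. The summed levels of the T and NK cell markers were 6.67 in the odor-enriched and 1.75 in the control bulb. Their part in the levels of the transduction genes, which are relative to each array's 75th percentile, was not tested.

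**Figure D4:**
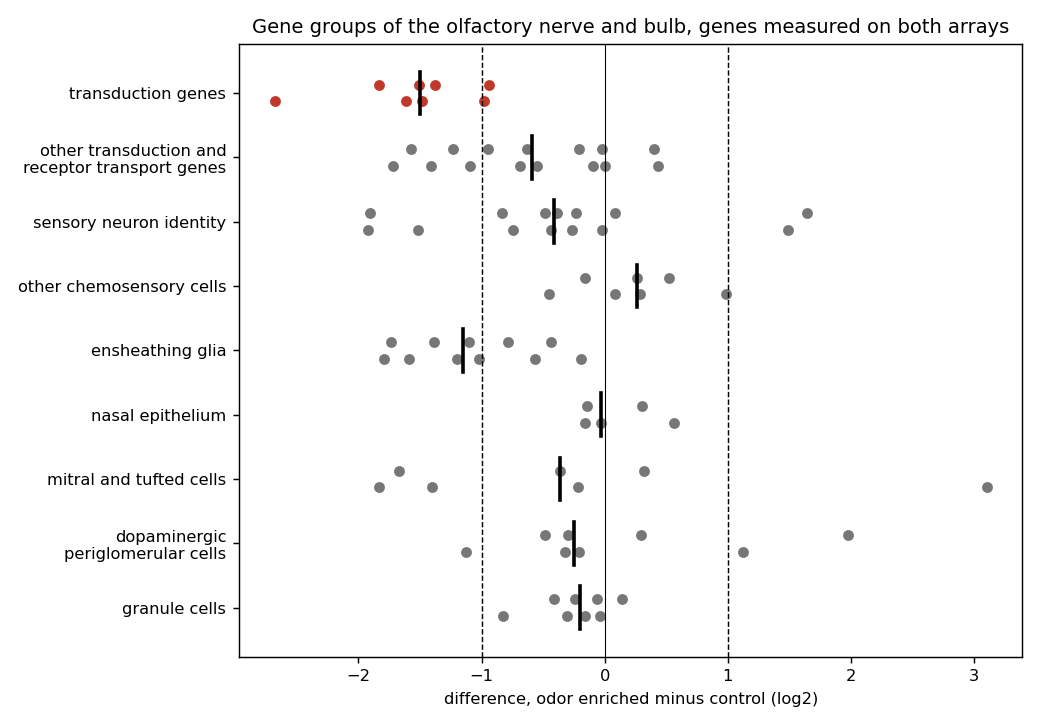
Difference (x axis, log2, odor enriched minus control) of the reported genes measured on both arrays in 9 lists (rows), with a vertical bar at the median of the list's members measured on both arrays, dashed lines at 2-fold and points offset up and down only to be seen. The transduction genes (red, median -1.50) and the ensheathing glia (median -1.15) lie lowest, against -0.20 for the granule cell list, and genes above background in the control bulb alone, 5 of them in the nasal epithelium list, are not drawn.

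Probes of other genes lying within 20000 bases of a transduction probe, a distance chosen after values were seen, gave the values of the surroundings. Of 22 such probes 13 were measured on both arrays, 2 of them at least 2-fold lower and 2 higher, and the median difference was -0.03. The lowest was 6430500D05Rik (-2.08), 2458 bases from the main Stoml3 probe, followed by S100a3 (-1.26) beside S100a5. S100a4 (1.62) and S100a6 (-0.59), on the other hand, also neighbour S100a5, and a Cenpo probe near Adcy3 stood at 1.59. Of genes that overlap a transduction gene in RefSeq, Fam160a2 (with Cnga4) stood at 0.07 and Cenpo (with Adcy3) at 0.78.

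Processing changed the size of the differences of the 8 genes measured on both arrays but not their sign. Across the settings run, Omp ranged from -4.44 to -2.35, Gnal from -3.27 to -1.18, S100a5 from -3.38 to -1.28 and Stoml3 from -3.67 to -1.15, and each was at least 2-fold lower under all 13 alternatives. Cnga2 passed 2-fold under 12 of 13 (-3.13 to -0.76), Ano2 under 11 of 13 (-3.60 to -0.37), Adcy3 under 5 of 13 (-2.70 to -0.07) and Cngb1 under 5 of 14 (-2.74 to -0.01). Not every alternative could change a value. For Omp, S100a5, Cnga2 and Adcy3, with 1 probe each, the filters on dim probes and the brightest probe returned the reported value. The E1A scaling lowers every gene by 1.76, so a pass there is by construction, also for Adcy3 and Cngb1. Cnga4 and Rtp1 passed the detection filter only where it was loosened, with -3.06 to -2.72 in 3 settings for Cnga4 and -2.79 in 2 settings for Rtp1. With normexp correction, without regard to that filter, the Cnga4 probes stood at -0.90 and -0.03 and Rtp1 at 0.0060. With normexp correction Omp stood at -2.69, S100a5 at -1.68 and Gnal at -1.49, while Ano2 stood at -0.45, Cngb1 at -0.32 and Adcy3 at -0.07. The offset added by normexp makes the differences of dim probes smaller by construction.

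**Figure D5:**
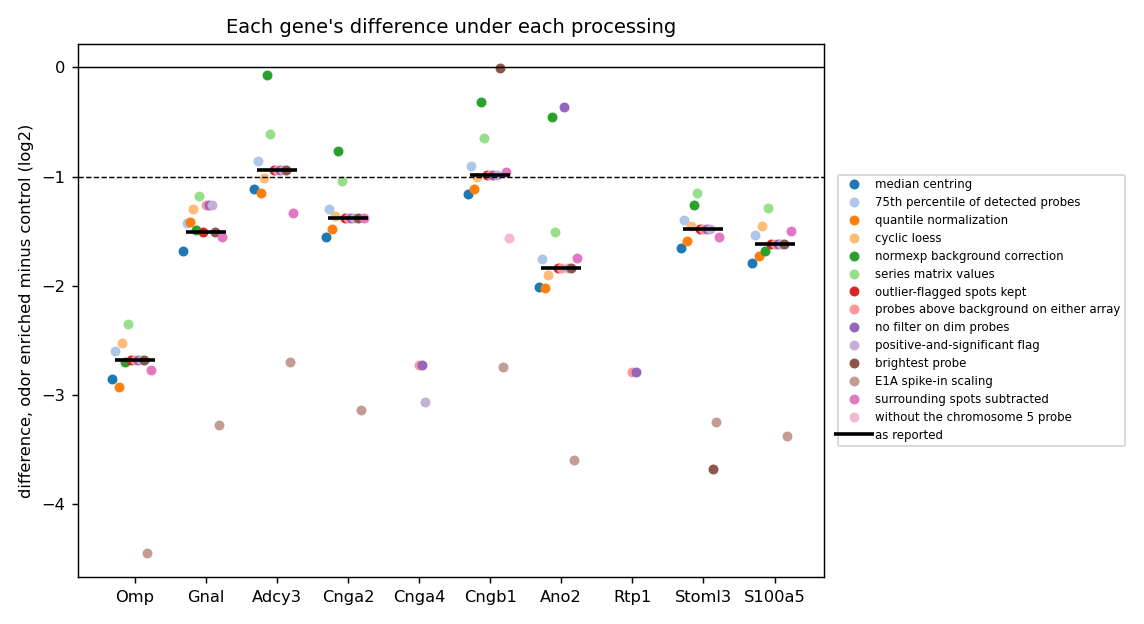
Difference (y axis, log2, odor enriched minus control) of each of the 10 genes under each setting in which it passed the detection filter (coloured points, offset sideways only to be seen) and as reported (black bar), with a dashed line at 2-fold lower and a solid line at 0. All points drawn lie below 0, those of the E1A spike-in scaling are the lowest of 7 genes and the brightest probe gives the lowest of Stoml3, and Adcy3 at -0.07, Cngb1 at -0.01 and Ano2 at -0.37 come nearest to 0.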

How the data were processed

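Per the labels, total RNA was amplified from an oligo-dT primer and labelled with Cy3. Per the file headers, Agilent Feature Extraction 11.5.1.1 made the processed signal, an intensity after background subtraction, not normalized between the arrays. The deposited matrix is in log2 units and lies near the log2 processed signal minus 1 constant per array (13.8 for odor enriched, 14.5 for control). The 99th percentile of the deviation from that constant was 9.86e-07 log2 units for odor enriched and 0.0485 for control, and the constant's origin is not given in the sources used here. The matrix medians are -8.98 for odor enriched and -9.48 for control, and its centring stays unknown.

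Outlier-flagged spots (183 in the odor-enriched, 122 in the control array) were left out, no spot was saturated, and log2 signals were averaged per probe and reduced by the array's 75th percentile. Genes were averaged over probes that passed the well-above-background flag on the 2 arrays. Positions are on mm9 as in the files, and names are the array's. Exon and UTR annotation of the probes was not used here. The genes, lists, naming rule and several alternatives were chosen with earlier results of these data known. Named genes were all members with every probe, every other cascade gene, the 2 highest and 2 lowest of each other list, relatives past 2-fold and 5 genes nearest to Omp. Some genes of the lists are counted but not reported here by name. Gnas, Gnaq, Th, Cnga1, S100a6 and the overlapping or neighbouring genes were named after their values were seen. Normalization and averaging were tested on simulated differences set on the control array. Both simulated arrays carried the same detection flags, so the detection calls and bounds were not tested. Python 3.11.15, numpy 2.4.6, pandas 2.3.3, matplotlib 3.10.9, R 4.3.3 and limma 3.58.1 were used. Alternatives were median centring, the percentile of detected probes, quantile and cyclic loess normalization, normexp with an offset of 50, the series matrix, filters on dim probes, the brightest probe, thresholds of 1.5-fold and 3-fold and, chosen after seeing the data, E1A spike-in scaling, subtraction of the surrounding 9 by 5 spots and Cngb1 without its chromosome 5 probe.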

Additional observations from a re-analysis of the deposited data

How the results depend on the processing

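No paired analysis was possible because each condition has 1 array without a replicate number, and no replicate could be left out. The 8 transduction genes measured on both arrays kept a negative difference under each alternative run, but for Cngb1 the direction depended on the probe. Its brightest probe alone stood at -0.01 ± 0.21, which gives no direction. That probe was at 0.10 after normexp correction and at 0.32 with the series matrix values. The count at least 2-fold lower, 6 as reported, ranged from 3 (3-fold threshold) to 8 over 16 settings, and the median, -1.50 as reported, from -3.26 (E1A spike-in scaling) to -1.01 over 14. The E1A scaling lowers every gene by 1.76, with a median of all genes at -1.76. That median was -0.17 with median centring, 0.33 with the series matrix values and 0.21 with no filter on dim probes, and within 0.1 of 0 under the others. Other cascade genes at least 2-fold lower, 5 as reported, numbered 8 at a 1.5-fold and 1 at a 3-fold threshold, 3 with normexp correction, 3 with the series matrix values and 16 with the E1A scaling. Sensory neuron identity genes, 3 as reported, numbered 5 at a 1.5-fold threshold, 5 with each of the filters on either array, with none, and with the positive-and-significant flag, 5 with the brightest probe and 12 with the E1A scaling. The cause of these shifts was not tested, except that the threshold and the E1A shift act by construction. Signal over background limits Rtp1, Cnga4, Adcy3 and Ano2, and 1 array per condition limits every difference.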
